A study of Mus musculus with 23 samples.

Results

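ChIP-seq peaks of p65 and of LXRβ were described at 3 loci named for genes that LXR is known to regulate, Mylip, Nr1h3 and Eepd1. The peaks were chosen by position: every peak of the 5 deposited lists whose centre lay in 1 of 3 windows on mouse build mm9, chr13:45430000-45550000 for Mylip, chr2:90990000-91090000 for Nr1h3 and chr9:25270000-25430000 for Eepd1. In all, 39 of 58278 listed peaks met this rule, 12 at Mylip, 11 at Nr1h3 and 16 at Eepd1. The loci were picked with the same lists in view, so their peak heights are given as a description. Each group was 1 library, without replicates, and no test between groups was run. Intervals cover counting error only.

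LXRα and LXRβ are nuclear receptors that sense oxysterols and act on DNA as dimers with RXR, typically at repeats of the hexamer AGGTCA. Without ligand they can recruit corepressors such as NCoR, and with ligand they switch on genes that lower cell cholesterol. Mylip, also called Idol, encodes an E3 ubiquitin ligase that sends the LDL receptor for degradation and so limits cholesterol uptake. Nr1h3 encodes LXRα itself, and control of this gene by LXR has been described in human macrophages. Eepd1 encodes a protein with an endonuclease/exonuclease/phosphatase domain that has been linked to ABCA1-dependent cholesterol efflux and to DNA repair. The p65 protein (RelA) is a subunit of NF-κB and moves into the nucleus after signalling from TLR4.

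The p65 lists came from peritoneal macrophages of C57BL/6 male mice aged 6 to 8 weeks, collected 3 to 4 days after thioglycollate. Both genotypes carried floxed NCoR alleles (NCoR fl/fl). Knockout mice also had 1 Lys M-Cre allele (Lys M-Cre +/-), a Cre that acts in myeloid cells, and wild type mice had none (Lys M-Cre -/-). After overnight culture in 0.5% serum, cells were left untreated or given 100 ng/ml Kdo2-Lipid A (KLA, a TLR4 agonist) for 1 h. The LXRβ list came from a RAW264.7 mouse macrophage line that stably carried a biotin-tagged LXRβ, given 1 µM of the LXR agonist GW3965 for 2 h. LXRβ was thus mapped in a cell line without KLA and p65 in primary cells without agonist, and a shared position does not mean binding in the same cell. In such pooled cells, binding in fewer cells and less binding per cell cannot be told apart. The lists measure no gene's expression, so neither macrophage identity nor loss of NCoR could be checked in them.

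Height is given throughout as the authors scaled it, to 10000000 tags in each library. The p65 libraries held 777228 to 2120392 tags and the LXRβ library 11758634. A single tag was worth 12.9 and 12.7 in the untreated wild type and knockout libraries, 4.72 and 5.98 in the KLA libraries and 0.910 in the LXRβ library. The lowest heights listed were 64.3, 63.6, 18.9, 29.9 and 8.2 in that order, and a site without a listed peak may hold tags below them. Listed peaks had fixed widths of 103 to 144 bp.

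Genome sequence of build mm9 was not used here, so the peaks themselves are given by position. The stretches below, the 250 bases before the annotated start of each gene, are shown because they are the regulatory sequence of the members that the reference holds (RefSeq, GRCm38.p6, printed 5′ to 3′ on the gene's strand). Where the mm9 peaks lie relative to these starts, and whether in an exon or intron, was not determined. Capitals mark matches on either strand to GGGCGG, to TATAAA or to an NF-κB pattern of GGGA and CC with 4 bases between them.
Mylip: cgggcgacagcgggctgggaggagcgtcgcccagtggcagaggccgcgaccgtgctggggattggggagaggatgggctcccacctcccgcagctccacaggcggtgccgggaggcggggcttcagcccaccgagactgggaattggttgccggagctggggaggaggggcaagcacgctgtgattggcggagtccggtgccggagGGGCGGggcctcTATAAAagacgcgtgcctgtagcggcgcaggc
Nr1h3: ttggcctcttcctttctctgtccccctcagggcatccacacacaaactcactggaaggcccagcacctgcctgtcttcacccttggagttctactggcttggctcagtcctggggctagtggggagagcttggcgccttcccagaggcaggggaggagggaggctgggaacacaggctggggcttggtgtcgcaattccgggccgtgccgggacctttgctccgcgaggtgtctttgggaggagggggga
Eepd1: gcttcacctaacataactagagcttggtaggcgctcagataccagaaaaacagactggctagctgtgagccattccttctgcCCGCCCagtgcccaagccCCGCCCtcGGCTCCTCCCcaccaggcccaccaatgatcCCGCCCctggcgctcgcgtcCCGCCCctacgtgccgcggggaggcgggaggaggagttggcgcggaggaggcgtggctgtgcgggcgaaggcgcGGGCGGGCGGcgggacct

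None of the 4 annotated starts of the 3 genes (Nr1h3 has 2) held the hexamer AGGTCA in these 250 bases, which 14.0% of 32851 promoters did. A direct repeat of AGGTCA with 4 bases between, the typical LXR element, was in 0.0152% of promoters and in none of these. The Mylip stretch held TATAAA from 32 to 27 bases before the start and 1 GGGCGG, patterns found in 12.4% and 32.7% of promoters. The Eepd1 stretch held 6 GGGCGG matches, 2 of which overlap, and 1 match to GGGA and CC with 4 bases between, a pattern found in 17.6% of promoters. The Nr1h3 stretch held none of the patterns. All 3 were rich in G and C, with 71.2% at Mylip, 63.2% at Nr1h3 and 68.8% at Eepd1. Of 10 other LXR target genes with an entry (among them Srebf1 and Apoe), 0 held AGGTCA in the same 250 bases and 5 held GGGA and CC with 4 bases between. The patterns TATAAA and GGGCGG were chosen after the sequences were seen. A match is a description of letters and not a bound site. Only exact matches were searched, so a stretch without a match may still hold an LXR element.

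LXRβ peaks were listed at 2 of the 3 loci. At Mylip the list held 1 peak, chr13:45487022-45487142, with a height of 109.2 (95% Poisson interval 90.5 to 131) from 120 tags, which ranked 3 of 2743. At Eepd1 it held 3 peaks of falling height. They lay at chr9:25316575-25316695 with 91.9 (74.9 to 112, rank 9), at chr9:25326992-25327112 with 49.2 (36.9 to 64.1, rank 50) and at chr9:25378019-25378139 with 9.1 (4.36 to 16.7). The intervals of the 3 Eepd1 heights did not overlap, while those of the Mylip peak and the tallest Eepd1 peak did. The third Eepd1 peak rested on 10 tags, 1 above the threshold of 9, and 513 peaks of the list had its height.

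The Nr1h3 window, whose gene LXR has been described to control in human macrophages, held no listed LXRβ peak in these mouse cells. At this depth a site of up to 8 tags would not have been listed, and 2236 putative LXRβ peaks of the whole library had been removed against the input, so binding below these limits was not detectable. The nearest listed LXRβ peaks lay outside the window, 63.3 kb before it (chr2:90926629-90926749, height 11.8) and 461 kb after it (height 9.1). The tallest p65 site of the window thus had no LXRβ peak within 50 kb, and 30.0% of all wild type KLA p65 peaks had one.

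The LXRβ peaks at Mylip and Eepd1 had focus ratios above the list median. Their heights were 10.0 times (Mylip), 8.43 times and 4.51 times (Eepd1) the list median of 10.9, and 0.835 times for the lowest Eepd1 peak. The focus ratio, the fraction of tags on the side of the peak that their strand predicts, was 0.891 at Mylip and 0.872, 0.826 and 0.917 at Eepd1, against a list median of 0.769. Tall LXRβ peaks in general had higher focus ratios, with medians of 0.844 for the 10 tallest and 0.823 for the 50 tallest. The authors' fold over the surrounding 10000 bp was 57.5 at Mylip and 52.9, 33.5 and 9.38 at Eepd1, against a median of 11.4. Scaled input tags were at the list's lowest value of 1.4 at 3 of the 4 peaks, as at 83.3% of the list, and at 3.0 at the middle Eepd1 peak. The plot of height against rank shows where the peaks stand in each list.

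**Figure D1:**
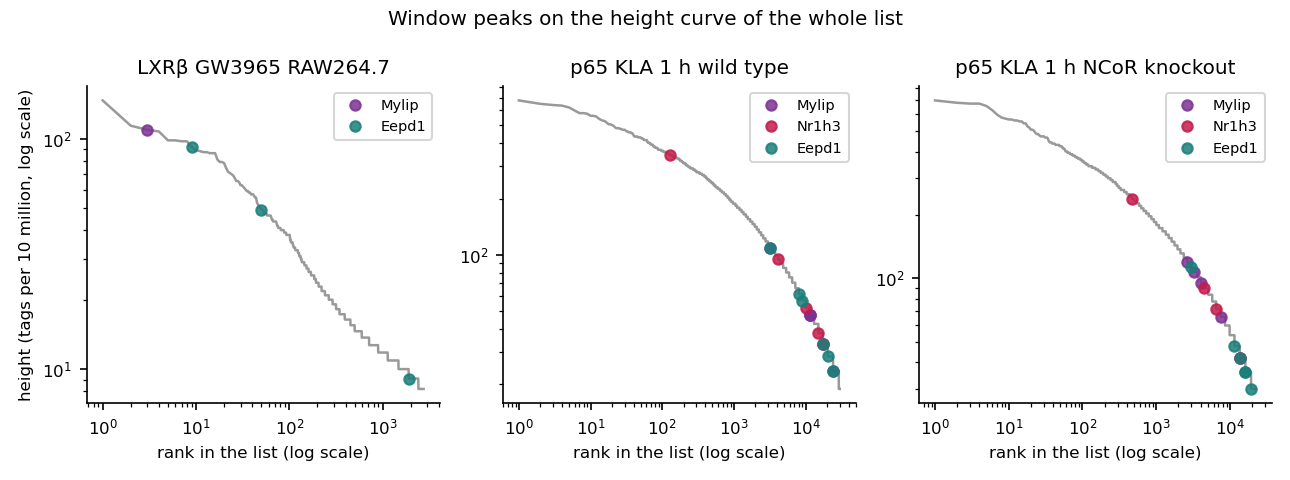
Height against rank, both on log axes, for all peaks of the LXRβ, wild type KLA and knockout KLA lists (grey line), with the peaks of the Mylip, Nr1h3 and Eepd1 windows as coloured points. Mylip and Eepd1 hold LXRβ ranks 3 and 9, and the tallest p65 peak of the 3 windows in both KLA lists belongs to Nr1h3, which has no LXRβ point.

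The Eepd1 LXRβ peaks formed a group with no other LXRβ peak near. The first and second peak were 10.4 kb apart and the other interval was 51.03 kb. The next listed LXRβ peaks on chromosome 9 lay 3873 kb before and 1160 kb after the window. Over all LXRβ peaks, 27.9% had 3 or more listed peaks, themselves included, in 160 kb centred on them, as the tallest Eepd1 peak did. The Mylip peak was the only one in 120 kb, which held for 51.8% of LXRβ peaks. Its next neighbours lay 226 kb before the window and 386 kb after it, with heights of 14.6 and 10.0.

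After 1 h of KLA, p65 was listed at all 3 loci in both genotypes. Wild type cells had 6 peaks at Mylip, 5 at Nr1h3 and 6 at Eepd1, and knockout cells 5, 4 and 6. In 120 kb centred on the Mylip LXRβ peak there were also 6 and 5, and the medians around all 2743 LXRβ peaks were 5 and 4. In 160 kb centred on the tallest Eepd1 LXRβ peak there were 7 and 6, and the medians were 7 and 5. Per 100 kb, wild type cells had 5.0 p65 peaks at Mylip and at Nr1h3 and 3.75 at Eepd1.

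**Figure D2:**
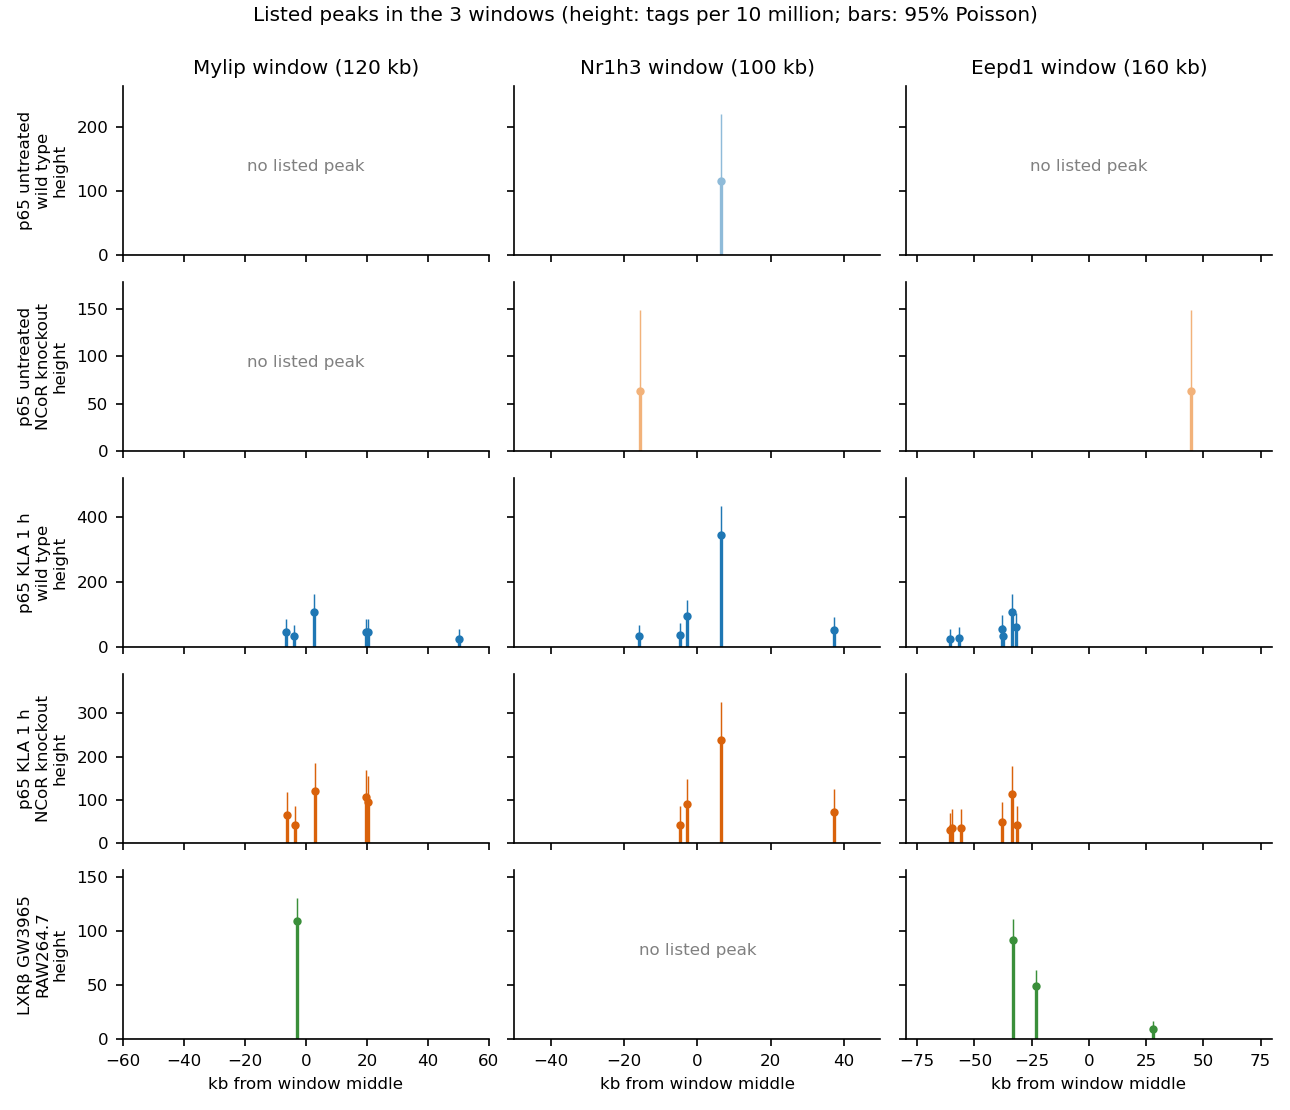
All listed peaks in the 3 windows, by list (rows) and locus (columns): the x axis is the distance from the middle of the window in kb, the y axis is peak height in tags per 10000000, and bars are 95% Poisson intervals. p65 peaks appear in all 3 windows after KLA, only the Nr1h3 and Eepd1 windows have untreated peaks, and the Nr1h3 window has no LXRβ peak.

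The tallest p65 peak of the 3 loci was in the Nr1h3 window. At chr2:91046513-91046645 wild type KLA cells reached 344.3 (270 to 433) from 73 tags, rank 127 of 30021. The matching knockout peak, chr2:91046459-91046603, reached 239.0 (171 to 325) from 40 tags, rank 467 of 22585. It made up 61.4% of the summed height of the wild type peaks in the window and 54.1% of that of the knockout peaks. In the gene order of GRCm38.p6 the coding genes next to Nr1h3 are Madd and Acp2, and to which gene the peak belongs was not tested.

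The other Nr1h3 peaks were lower. A site 9.54 kb before the tallest was at 94.3 (57.6 to 146) in wild type cells and at 89.6 (50.2 to 148) in knockout cells. A site 30.7 kb after it reached 51.9 (25.9 to 92.8) and 71.7 (37.1 to 125). The genotypes' intervals overlapped at both. The remaining peaks rested on 7 or 8 tags, with heights of 33.0 and 37.7 in wild type and 41.8 in knockout cells.

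At Mylip the tallest p65 peak was 5.72 kb after the LXRβ peak, at chr13:45492739-45492871. The wild type height was 108.5 (68.8 to 163). The knockout height, at chr13:45492808-45492952, was 119.5 (73.0 to 185). These ranked 3202 of 30021 and 2638 of 22585, while the LXRβ peak ranked 3 of 2743. Further out, 22.6 kb and 23.3 kb after the LXRβ peak, lay a pair of p65 peaks 729 bp apart in wild type and 737 bp in knockout cells. Both members of this pair had a wild type height of 47.2, and the knockout heights were 107.6 and 95.6. Closer in, 3.47 kb before the LXRβ peak, the heights were 47.2 and 65.7. Gmpr, which encodes GMP reductase, and Dtnbp1 are the neighbouring coding genes in the GRCm38.p6 order.

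At Eepd1, 4 of 6 wild type and 3 of 6 knockout KLA peaks were centred within 5 kb of the tallest LXRβ peak. At least as many were found around 2.37% (wild type) and 8.02% (knockout) of all LXRβ peaks, whose median was 1 in both. The 5 kb distance was not among the planned comparisons and just takes in the site 4.79 kb away. As the locus was picked with these lists in view, the shares do not measure rarity. Of the 4 wild type peaks, 1 (height 33.0) rested on 7 tags and overlapped no knockout peak. The tallest p65 peak, chr9:25316525-25316657, had a wild type height of 108.5 (68.8 to 163), and its knockout partner, chr9:25316521-25316665, had 113.5 (68.4 to 177). A flanking site 4.79 kb before the LXRβ centre had a wild type height of 56.6 and a knockout height of 47.8. On the other side, 1.67 kb and 1.80 kb away, the heights were 61.3 and 41.8. The other 2 wild type and 3 knockout peaks, with heights of 23.6 to 35.9, lay 22.6 to 27.5 kb before it. The last 112 kb of the window, which hold the other 2 LXRβ peaks, had no KLA p65 peak in either genotype. The next wild type KLA peak lay 1554 kb beyond the window and the next knockout KLA peak 5428 kb.

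**Figure D3:**
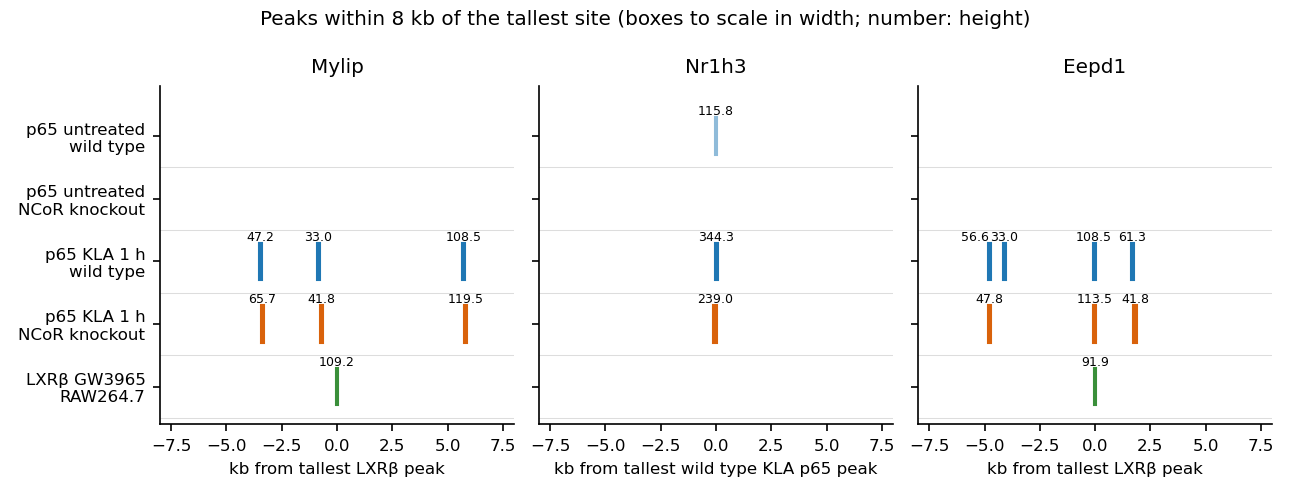
Peaks within 8 kb of the tallest LXRβ peak (Mylip, Eepd1) or of the tallest wild type KLA p65 peak (Nr1h3): the x axis is the distance in kb, each row is a list, boxes show the peak at its listed width, and numbers are heights in tags per 10000000. At Eepd1 the LXRβ box (91.9) and the p65 boxes of both genotypes (108.5 and 113.5) sit at the same place, while at Mylip the p65 boxes lie to the sides of the LXRβ box (109.2).

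LXRβ and p65 shared a position at Eepd1 and not at Mylip. Of the 4 LXRβ peaks in these windows, 1 overlapped p65 in both KLA lists. Over all LXRβ peaks, 42.4% met wild type and 34.8% knockout KLA p65. The overlapping peak was the tallest Eepd1 peak, whose centre was 44 bp from the wild type and 42 bp from the knockout p65 centre. The medians over all overlapping LXRβ peaks were 44 and 43 bp. Its p65 height of 108.5 was above the upper quartile of wild type p65 heights at LXRβ sites, 99.0, and its knockout height of 113.5 was equal to the upper quartile, 113.5. Seen from p65, 1 of 17 wild type and 1 of 15 knockout KLA peaks of the windows overlapped LXRβ, against 3.87% and 4.23% of the whole lists.

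At Mylip the p65 peak nearest to LXRβ was centred 856 bp away in wild type cells (chr13:45486160-45486292, height 33.0, 13.3 to 68.0) and 710 bp away in knockout cells (chr13:45486300-45486444, height 41.8, 16.8 to 86.2). Both rested on 7 tags. Among LXRβ peaks without an overlapping wild type p65 peak, 27.2% had one centred within 1 kb. At the other 2 Eepd1 LXRβ peaks the nearest wild type p65 centre was 8.74 kb and 59.8 kb away, against a median of 4.92 kb for LXRβ peaks without overlap. Lack of overlap with p65 was common among tall LXRβ sites as well: of the 50 tallest, 19 overlapped wild type and 17 knockout KLA p65.

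**Figure D4:**
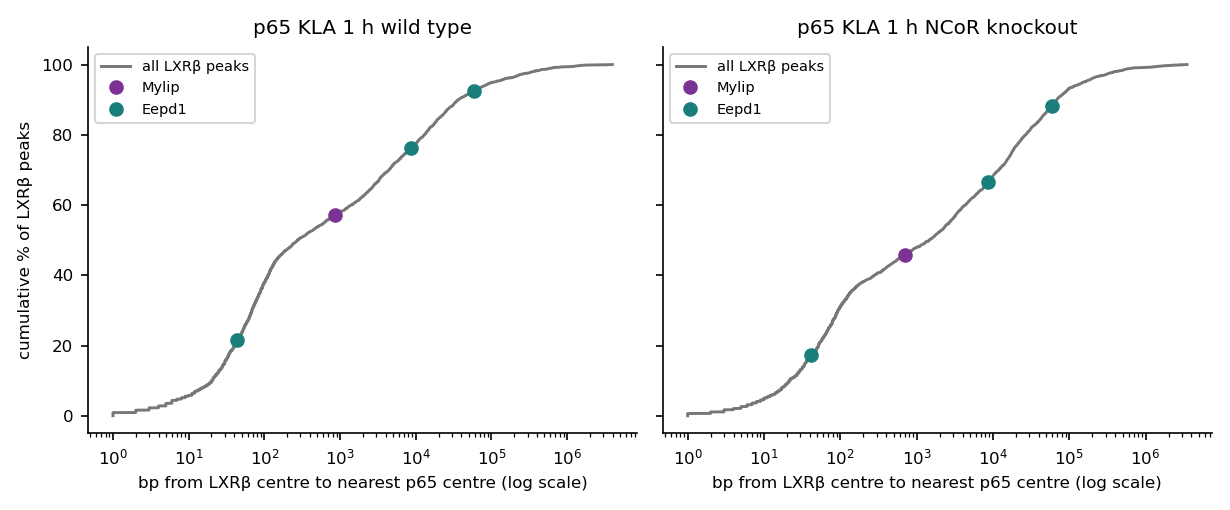
Cumulative percentage of all LXRβ peaks (y axis) against the distance in bp from the LXRβ centre to the nearest p65 centre (x axis, log scale), for the wild type (left) and knockout (right) KLA lists, with the Mylip peak and the 3 Eepd1 peaks as points. The tallest Eepd1 peak lies at 44 and 42 bp, the Mylip peak at 856 and 710 bp, and the other Eepd1 peaks beyond 8 kb.

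The genotype comparison asked whether p65 at these loci after KLA differed when NCoR was absent. Most sites were listed in both genotypes: 11 of 17 wild type peaks overlapped a knockout peak, against 54.0% of the whole list, and 11 of 15 knockout peaks a wild type peak, against 71.7%. At the 11 shared sites the knockout to wild type ratio of heights ran from 0.682 to 2.28, with a median of 1.101, and the median over all 16203 shared sites was 1.09. The knockout height was higher at 7 of the 11 sites, against 57.8% of all shared sites. Knockout peaks were wider, 144 bp against 132 bp. Per bp of peak width, the knockout was higher at 6 of the 11 sites and at 7803 of all 16203. The medians per bp were 1.01 and 0.996. Whether tags grow in proportion to the listed width was not tested. The knockout KLA list held no height below 29.9, while the wild type KLA list went down to 18.9. A shared site below 29.9 in wild type cells could thus only come out higher in the knockout. An Eepd1 site with a wild type peak of 23.6 and a knockout peak of 29.9 was such a case. It counts among the 7 sites and, per bp, among the 6. How far this limit moved the counts and medians, here and over all shared sites, was not tested. At none of the 11, each taken alone, did the counting interval of the ratio exclude 1. Sites were not pooled, and a difference between the libraries was not tested.

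The ratios of 2 or more were the pair of sites 22.6 kb and 23.3 kb after the Mylip LXRβ peak. There the ratio was 2.28 (counting interval 0.998 to 5.53, from 18 against 10 tags) and 2.03 (0.865 to 5.00, from 16 against 10 tags). Of all shared sites 6.28% had a ratio of 2 or more. Per bp of peak width, since knockout peaks were 144 bp and wild type peaks 132 bp wide, the ratios were 2.09 and 1.86. The Mylip site with the tallest p65 peak had a ratio of 1.101 (0.574 to 2.10).

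The lowest ratios were at Nr1h3 and Eepd1. At the tallest Nr1h3 site the ratio was 0.694 (0.460 to 1.03), the site with most tags of the 11, and 12.7% of all shared sites had a ratio of 0.7 or less. At Eepd1 the site 1.67 kb after the LXRβ peak had 0.682 (0.230 to 1.84), although its 2 peaks shared only 11 bp. The Eepd1 site that overlaps the LXRβ peak of RAW264.7 cells had a ratio of 1.05 (0.539 to 2.01). The p65 peaks there differed by less than counting error. No input entered the calling of the wild type KLA peaks, while it did for knockout cells, and the part of this in the ratios was not tested.

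**Figure D5:**
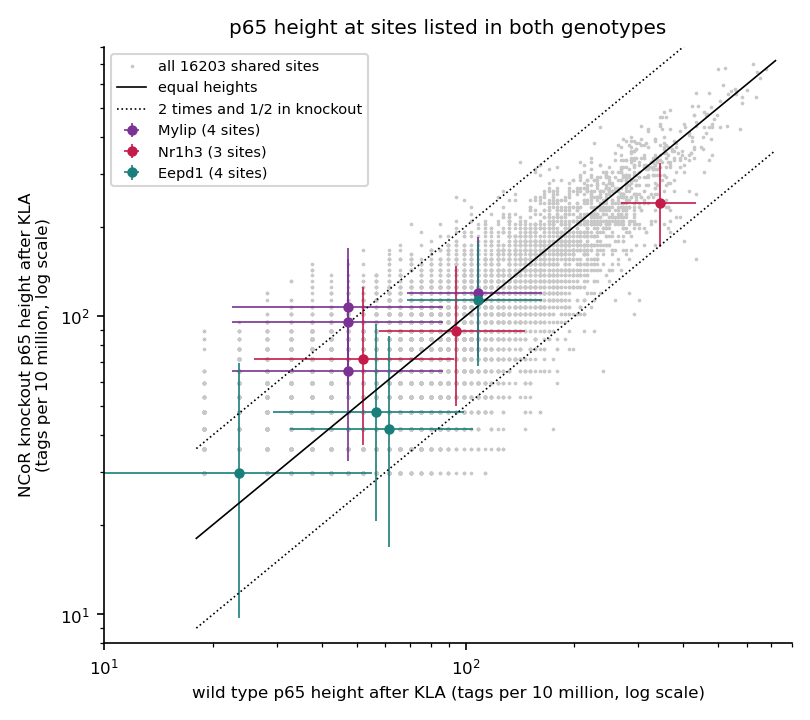
Knockout against wild type p65 height after KLA (both in tags per 10000000, log axes) at all 16203 sites listed in both genotypes (grey) and at the 11 sites of the windows (coloured, with 95% Poisson bars); the solid line marks equal heights and the dotted lines ratios of 2 and 0.5. A pair of Mylip sites lies just above the upper dotted line and the tallest Nr1h3 site lies below the line of equal heights.

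Peaks without a partner in the other genotype were low. Of the 6 such wild type and 4 such knockout peaks, with 5 to 8 tags each, 2 and 2 had a peak of the other genotype centred within 500 bp, against 12.8% and 22.1% of all such peaks in the lists. Counting these as shared, 13 of 17 wild type and 13 of 15 knockout peaks had a partner, against 59.9% and 78.0% of the whole lists. The near pairs were the Mylip peak nearest to LXRβ (146 bp apart) and a Nr1h3 site of 37.7 and 41.8 (154 bp apart). Of the others, the wild type peaks of 23.6 at Mylip and 28.3 at Eepd1 were below 29.9, the lowest height that the knockout list holds. The rest were wild type peaks of 33.0 at Nr1h3 and 33.0 at Eepd1 and knockout peaks of 35.9 and 35.9 at Eepd1.

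Without KLA, p65 was listed at 3 places in these windows. The 1 wild type peak, chr2:91046528-91046630 in the Nr1h3 window, had a height of 115.8 (52.9 to 220) from 9 tags, and its centre was the centre of the tallest KLA peak there. The wild type height after KLA was 2.97 times as high (counting interval 1.48 to 6.76), and over the 532 untreated wild type peaks with a KLA peak the median was 1.28 with an upper quartile of 2.38. Over the 497 of them with less than 1 scaled input tag, the median was 1.47 and the upper quartile 2.44. Untreated wild type peaks were 103 bp and KLA peaks 132 bp wide, and these ratios are not corrected for width. The untreated knockout list held no peak at this Nr1h3 site. Its lowest listed height of 63.6 stands for 5 tags, so a fold change for knockout cells is not given. Of all untreated wild type peaks, 40.5% overlapped an untreated knockout peak and 75.8% a wild type KLA peak.

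The 2 untreated knockout peaks had 5 tags and a height of 63.6 (20.7 to 148) each. The peak at chr2:91024175-91024301 in the Nr1h3 window overlapped a wild type KLA peak of 33.0, as 46.8% of untreated knockout peaks did, and no knockout KLA peak, which 41.4% did. The peak at chr9:25394617-25394743 in the Eepd1 window overlapped no KLA peak of either genotype, and its nearest knockout KLA peak was 76.2 kb away. It lay 16.6 kb from the lowest Eepd1 LXRβ peak. At Mylip neither untreated list held a peak, and the nearest were 853 kb (wild type) and 522 kb (knockout) from the LXRβ peak.

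Seen from the KLA lists, 1 of 17 wild type and 0 of 15 knockout peaks of the windows overlapped an untreated peak of the same genotype. The whole lists gave 1.77% and 4.08%. The untreated libraries were shallower, with a lowest listed height of 64.3 and 63.6, above the KLA height of 13 of the 17 wild type and 7 of the 15 knockout peaks, and at those heights these sites would not have been listed without KLA.

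The LXRβ peak nearest to any window edge from outside was 63.3 kb away. The wild type KLA peaks closest to an edge from inside were 9.74 kb from the right edge at Mylip (height 23.6), 12.8 kb from the right edge at Nr1h3 (51.9) and 19.1 kb from the left edge at Eepd1 (23.6). Beyond the same edges, the next wild type KLA peaks were 58.1 kb (Mylip, 33.0), 30.3 kb (Nr1h3, 99.0) and 32.4 kb (Eepd1, 23.6) away. The LXRβ peak 63.3 kb before the Nr1h3 window lay at a place where untreated p65 peaks were also listed. Their heights were 90.1 in wild type (chr2:90926615-90926717) and 114.5 in knockout cells (chr2:90926650-90926776).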

How the data were processed

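The peaks of 5 ChIP-seq libraries were used, 1 per group, and the other 18 of the 23 samples were not analysed here. Per the submitters' processing notes, Bowtie 0.12.7, HOMER and mm9 were used, and which HOMER version is not given in the sources used here. Per the file headers, each library had its own run of HOMER's findPeaks (style factor, FDR threshold 0.001), which asked for 4-fold over the local 10000 bp and, except for wild type KLA, over input.

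The deposited height is a signal, the tags at a peak per 10000000 tags. In the LXRβ list the deposited heights step by 0.910, while the header total of 11758634 tags would give 0.850, so the tags were taken from the step. The deposited score matches these tags in 4 lists and differs from them at 13561 wild type KLA peaks. With ratios taken from the score, the knockout was higher at 6 of the 11 shared sites in place of 7. The Eepd1 site that overlaps LXRβ then had a ratio of 0.963 in place of 1.05. The deposited input and called tags, the authors' focus ratio (a fraction) and their ratio over local signal describe peaks. The deposited p-values were not used.

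Overlap means 1 bp or more, with the nearest centre as partner, with pandas 2.3.3, numpy 2.4.6 and scipy 1.17.1 under Python 3.11.15. Height intervals are exact Poisson and ratio intervals exact conditional binomial, at 95%. The overlap code was tested on sets of 2743 and 3000 simulated peaks of equal width, set far apart, with shifted copies as partners. It found 100% of planted overlaps. The widths and crowding of the real lists were not simulated, so this checks the code only. Alternatives changed the height minimum, the window, the input limit, the overlap rule, the lowest height and the scaling of heights. The loci, lists and rules were chosen with earlier results of these data known. The text names all LXRβ and untreated peaks, the tallest p65 peaks and those near LXRβ, and peaks at window edges. Other LXR target genes were not placed, since no mm9 annotation was used. The tags are not independent molecules.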

Additional observations from a re-analysis of the deposited data

Results flagged for a closer look

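At the Nr1h3 site from 91024175 of chromosome 2, the lists of the genotypes differed in opposite ways with KLA: the knockout list had a peak of 63.6 untreated and none after KLA, and the wild type list had none untreated and a peak of 33.0 after KLA. The peaks rested on 5 and 7 tags, and the difference was not tested. The lowest listed heights were 64.3 in the untreated wild type list, above 33.0, and 29.9 in the knockout KLA list, within the interval of the untreated knockout peak (20.7 to 148), so a direction of change is not shown in either genotype. Their centres were 105 bp apart.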

How the results depend on the processing

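Of 116 values under alternatives, 105 kept within 1.5 times the count or within the counting interval, among them all 18 overlap counts and all 33 site ratios. This rule is wide. Under it, wild type KLA peaks with a knockout partner count as kept at 8 in place of 11, with 50% reciprocal overlap. The site ratios had wide intervals, and scaling per bp or to tags in peaks multiplied every site by the same factor near 1. That they stayed within their intervals thus shows little. Window counts of 0 could not move with a higher height minimum, a smaller window or the input limit, and were counted as kept. With peaks of at least 2 times the list's lowest height, the untreated peaks fell away (0 at Nr1h3 in wild type, 0 at Nr1h3 and 0 at Eepd1 in knockout cells), and KLA peaks numbered 3 in wild type cells at Nr1h3 and at Eepd1, and 1 in knockout cells at Eepd1. In the central part of the Eepd1 window, 50% of its length, 0 untreated and 3 KLA knockout peaks were left. No LXRβ peak of the whole list had less than 1 scaled input tag (the lowest was 1.4), so that limit left 0 LXRβ peaks at Mylip and at Eepd1. Per bp of peak width, 1 shared site in place of 2 had a knockout to wild type ratio of 2 or more. The alternative with centres at most 500 bp apart was, for p65 lists, chosen after seeing the data, and gave counts within 1.5 times those reported. No paired analysis was possible because each group was 1 library. Depth limits these results, since many p65 peaks rest on 5 to 8 tags, and 1 library per group gives no replicate error.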
